A study of Oryza sativa Japonica Group with 6 samples.

Results

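Heat shock protein genes of rice (Oryza sativa, Japonica group) were followed in polyA RNA-seq of seedling leaves taken on post-planting day 14, in 6 libraries. A gene belonged to the set if its annotation named a heat shock protein, HSP70, HSP90, HSP20 or alpha crystallin, if that text held none of the words DnaJ, Clp, HSP100, HSP101 and factor, if it was not Os05g0519700, and if it had 10 or more reads in at least 3 of the 6 libraries. Of 37863 genes in the table, 131 matched the terms, 56 of these were set aside by the exclusions, and 51 of the remaining 75 reached the read minimum. By annotation the 51 members comprised 21 small HSPs, 5 genes described as carrying an HSP20-like chaperone domain, 10 HSP70s, 6 HSP90s, 7 genes whose products act with these chaperones, and 2 without a class. The exclusions worked on words alone, so Os02g0100300, annotated as an HSP40 (the DnaJ family) with TPR repeats, stayed in the set and is counted among the 7. No member reached the read minimum through 1 genotype alone, and 44 had 10 or more reads in all 6 libraries.

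Heat shock proteins are molecular chaperones. Small HSPs share the alpha-crystallin domain and bind unfolding proteins without using ATP, HSP70s bind and release short exposed stretches in an ATP-driven cycle, and HSP90s act on kinases, receptors and other nearly folded clients. In plants many small HSP genes and some HSP70 genes are nearly silent in unstressed leaves and are switched on by heat shock factors, whereas cognate HSP70s and most HSP90s are made at all times and in several compartments, among them the cytosol, endoplasmic reticulum, plastid and mitochondrion.

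The 6 libraries fall into 3 of wild type (WT) and 3 of OsWRKY65-2, a line labelled as overexpressing OsWRKY65, a transcription factor of the WRKY family. Both were grown on MS medium, and the labels name no stress treatment. The labels give no promoter for the transgene, and OsWRKY65-2 is treated as 1 line. Whether the replicates were different plants is not given, so p-values cover the spread among libraries, possibly a technical one. WT columns were recognised by elimination: their heading has an unexplained prefix, and WT was the only group left without columns. Every direction given here rests on that reading, and library numbers are those of the headings.

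Total counts ranged from 20585288 to 29720852 per library. OsWRKY65-2 library 3 stood apart: across genes its log2(CPM + 1) correlated at r = 0.698 to 0.785 with the other 5 libraries, against 0.923 to 0.964 among those (genes are not independent replicates). CPM is the read count relative to the library total after TMM scaling. It also lacked any read for 2444 genes whose median over the remaining libraries exceeded 50 reads, a number that was 28 to 198 for each other library. The gene taken as OsWRKY65, Os12g0116800, was at 4.16, 0 and 0 CPM in WT and at 69.5, 42.3 and 1039.6 CPM in OsWRKY65-2. The library with the highest level of it was thus the library that stood apart. Another candidate for OsWRKY65, Os12g0116700, was at 5.08, 0 and 0 CPM in WT and at 7.29, 7.99 and 0 CPM in OsWRKY65-2. The statement about the highest level holds for Os12g0116800 alone. Leaf markers (23 genes for light-harvesting proteins and the Rubisco small subunit, 4 or 5 of them at 0 in each library) summed to 16367 to 24116 TPM in WT and to 26481 to 29253 TPM in OsWRKY65-2, so every library of the line was above WT. Marker sums for dehydration (36 genes) and defence (39 genes) were 3172 and 3468 TPM in OsWRKY65-2 library 3, against 216 to 386 and 294 to 1155 TPM in the other 5 libraries. The sum for dividing cells (128 genes) was 2586 TPM there and 4856 to 8475 TPM elsewhere. Their part in the results below was not tested, and in bulk leaf tissue a shift in cell types cannot be told apart from a shift in RNA per cell.

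No heat shock protein gene passed the test for a difference between OsWRKY65-2 and WT over all 6 libraries. edgeR's quasi-likelihood test with Benjamini-Hochberg adjustment over 23769 genes called 0 of 51 members higher and 0 lower (lowest adjusted p = 0.763), and the share of all genes called was 0.0% in each direction. At an unadjusted p under 0.05 there were 7 higher and 1 lower member, 13.7% and 1.96% of the 51, beside 4.25% and 2.26% of all genes tested. DESeq2 called 2 members higher, both HSP70s, and 0 lower, and gave no p for 1 member (Os03g0277300), at a background of 1.76% higher and 1.27% lower. Without OsWRKY65-2 library 3, edgeR again called 0 members in either direction, where 0.0527% of genes were called higher and 0.0243% lower, and DESeq2 called 1 member higher and 0 lower (background 1.08% and 1.68%).

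More members lay above WT than below it. A positive log2 fold change was found for 38 of 51 (74.5%), against 49.5% of all genes tested, with a median of 0.43 against -0.01. Without OsWRKY65-2 library 3 the positive members were 35 of 51, at 51.6% of all genes, and their median fell to 0.16. All 3 OsWRKY65-2 libraries lay above all WT libraries in CPM for 8 members (15.7%), where 7.16% of all genes did so, and below them for 1 member (1.96%), where 10.5% did so. On the deposited TPM scale, whose median log2 fold change over all genes was -0.28, 3 members (beside 3.9% of all genes) lay above WT without overlap and 2 (beside 18.4%) lay below. The genes of the set were chosen with earlier results of these data known, so these shares describe the members and are no test of them.

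**Figure D1:**
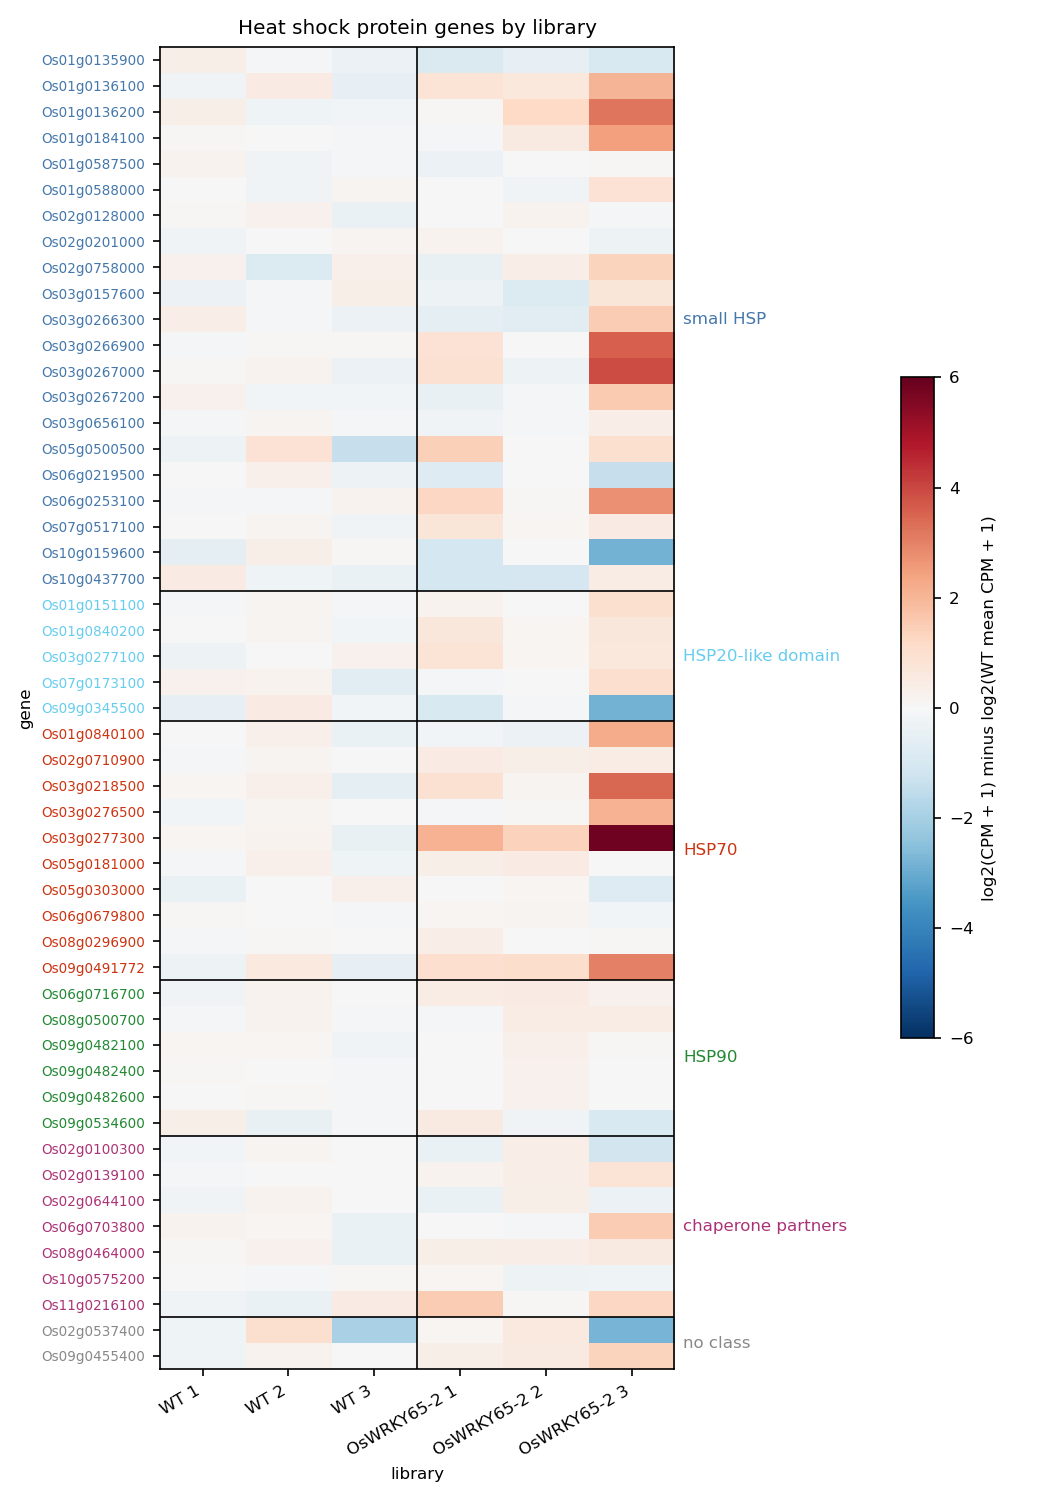
Each row is 1 of the 51 member genes and each column 1 library; colour gives log2(CPM + 1) minus the log2 of the WT mean CPM + 1, with classes separated by lines and named at the right. The deepest reds lie in OsWRKY65-2 library 3 among small HSPs and HSP70s, up to 5.85 for Os03g0277300, while the HSP90 block stays pale in all 6 libraries.

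Most of the departure from WT came from OsWRKY65-2 library 3. In it 18 of 51 members (35.3%) were more than 1 unit of log2(CPM + 1) above the WT mean, where 15.7% of all genes were. Another 5 (9.80%) were more than 1 unit below, where 29.6% of all genes were. The 18 comprised 9 small HSPs, 1 gene with the HSP20-like domain, 5 HSP70s, 2 partner genes and 1 gene without a class, and no HSP90. In library 1 there were 5 members above and 2 below by that margin (background 5.82% and 7.36%). In library 2 there were 3 above and 1 below (background 3.37% and 4.36%). The added 1 shrinks the changes of genes near 1 CPM, so these counts can leave out weakly expressed members in each library. The median member stood at 0.54 relative to the WT mean in library 3, against 0.09 and 0.10 in libraries 1 and 2 and -0.09 to 0.15 in the WT libraries.

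**Figure D2:**
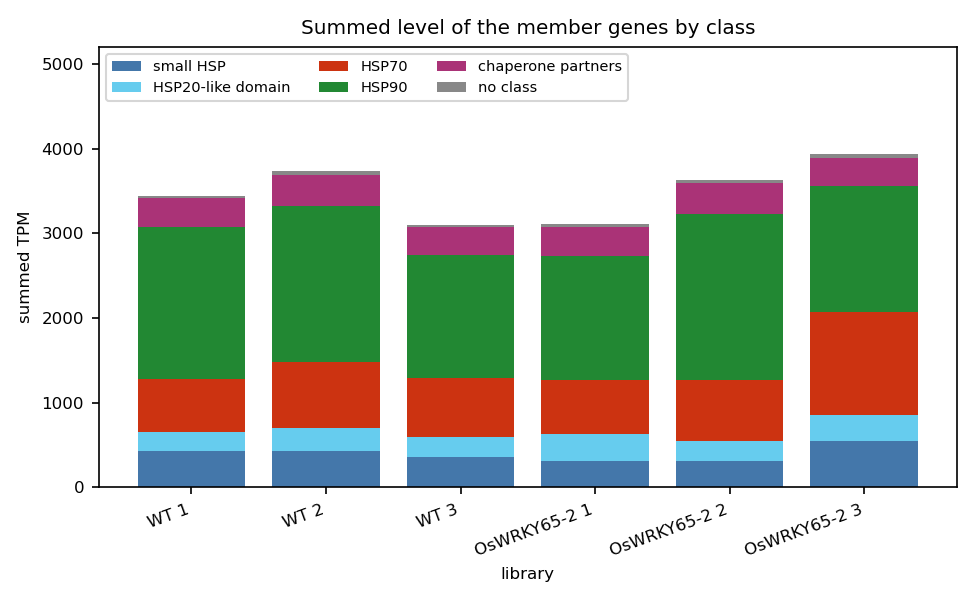
Bars give the summed TPM of the member genes in each library, stacked by class. The totals run from 3099 to 3939 TPM, with HSP90 the largest block throughout and the HSP70 block widest in OsWRKY65-2 library 3, at 1215 TPM.

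Levels were compared between genes on the deposited TPM scale, which is per transcript length. Mean TPM over the 6 libraries ran from 1.23 to 461 with a median of 25.7. The 51 members summed to 3443, 3732 and 3099 TPM in WT and to 3108, 3631 and 3939 TPM in OsWRKY65-2. HSP90 genes made up 47.1% to 52.3% of that sum in WT and 47.2%, 54.1% and 37.8% in OsWRKY65-2 libraries 1 to 3. HSP70 genes made up 18.0% to 22.3% in WT and 20.4%, 19.8% and 30.8% in OsWRKY65-2. The 21 small HSPs contributed 11.5% to 12.6% in WT and 9.86%, 8.69% and 13.9% in the line.

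The small HSP class held both well-expressed genes and genes at a few CPM. Of the 21 small HSPs 15 had a positive log2 fold change (median 0.47), and 11 did without OsWRKY65-2 library 3 (median 0.05). With the 5 HSP20-like domain genes included, 19 of 26 were positive (median 0.47), and 14 of 26 were without that library (median 0.08). The highest of the 26 by TPM was Os03g0277100, described by the HSP20-like chaperone domain alone, a fold that small HSPs share with p23-type partners of HSP90. It was at 81.2, 98.8 and 118 CPM in WT and 178, 106 and 153 CPM in OsWRKY65-2. Library 2 of the line lay within WT, and the log2 fold change was 0.56 ± 0.27 (SE, adjusted p = 0.764, edgeR).

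The mitochondrial 23.6 kDa small HSP Os02g0201000 was level between genotypes, at 45.6, 53.5 and 59.0 CPM in WT and 60.7, 53.0 and 42.8 CPM in OsWRKY65-2. The groups overlapped and the log2 fold change was -0.01 ± 0.22 (SE, adjusted p = 0.991, edgeR). The class V small HSP Os07g0517100 was at 23.5, 26.2 and 20.2 CPM in WT and 38.9, 25.5 and 32.6 CPM in OsWRKY65-2. Here 1 library of the line, library 2, fell within WT (log2 fold change 0.47 ± 0.25, SE, adjusted p = 0.770, edgeR).

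Os01g0135900, annotated as a low-molecular-weight HSP on chromosome 1, was the sole member below WT in every OsWRKY65-2 library in CPM, and in TPM the partner gene Os10g0575200 was so too. It was at 56.5, 42.5 and 35.3 CPM in WT and at 23.8, 31.2 and 23 CPM in OsWRKY65-2, or 86.5 ± 26.2 and 42.2 ± 9.58 TPM (SD, n = 3 each). The groups did not overlap on either scale. The log2 fold change was -0.78 ± 0.26 (SE) and did not pass the test (adjusted p = 0.763, edgeR); without OsWRKY65-2 library 3 it was -0.70 ± 0.26 (SE, adjusted p = 0.411, edgeR), so its size did not rest on that library.

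Its neighbours by identifier, the 16.9 kDa class I cytosolic genes Os01g0136100 and Os01g0136200, stood on the other side of WT. Os01g0136100 was at 0.2, 0.978 and 0 CPM in WT and at 1.47, 1.18 and 4.76 CPM in OsWRKY65-2, above WT in all 3 libraries. The count of 0 in WT library 3 allows up to 0.122 CPM (3 counts, counting error only), and the counts behind these values were 5, 32 and 0 against 28, 33 and 89 reads. Os01g0136200 was at 1.08, 0.367 and 0.447 CPM in WT and at 0.734, 2.75 and 14.1 CPM in OsWRKY65-2, so that library 1 of the line lay within WT and library 3 far above it. Log2 fold changes were 2.42 ± 1.51 and 3.06 ± 1.16 (SE), with adjusted p of 0.790 and 0.763 (edgeR), and fell to 1.57 and 1.36 without library 3. How reads of near-identical copies were divided is not given in the sources used here, so the values of this pair are uncertain one by one.

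A second group of class I genes lies close together by identifier on chromosome 3. The 17.4 kDa gene Os03g0266900, annotated for heat tolerance, was at 0.841, 1.10 and 1.10 CPM in WT and at 2.62, 0.963 and 22.9 CPM in OsWRKY65-2. Its neighbour Os03g0267000, annotated for heavy metal and bacterial resistance, was at 0.760, 0.917 and 0.284 CPM in WT and at 2.15, 0.321 and 23.9 CPM in OsWRKY65-2. In both genes library 3 of the line was high, at 22.6 and 36.5 times the WT mean, library 1 was slightly above WT and library 2 fell within it. The log2 fold changes of 3.02 ± 1.18 and 3.59 ± 1.5 (SE, adjusted p = 0.763 for both, edgeR) dropped to 0.77 and 0.84 without library 3 (adjusted p = 0.845 and 0.888, edgeR).

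The other pair on chromosome 3, Os03g0266300 (17.9 kDa class) and Os03g0267200 (17.7 kDa), was better expressed in WT. Os03g0266300 was at 16.7, 11.5 and 9.46 CPM in WT and at 8.02, 7.88 and 38.2 CPM in OsWRKY65-2, with libraries 1 and 2 below every WT library and library 3 above. Its log2 fold change of 0.52 ± 0.69 (SE, adjusted p = 0.902) turned to -0.66 ± 0.33 without library 3 (adjusted p = 0.530, both edgeR). Os03g0267200 was at 4.40, 3.09 and 3.09 CPM in WT and at 2.36, 3.14 and 12.5 CPM in OsWRKY65-2, with the same turn of sign, from 0.75 to -0.35 (adjusted p = 0.866 and 0.873, edgeR). Both genes are described here after their values were seen.

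Over the 26 genes with a small HSP or HSP20-like annotation, libraries 1 and 2 of the line lay below WT for 4 (15.4%, beside 14.1% of all genes). They lay above WT for 1 (3.85%, beside 14.6%), so for the 26 the share below was close to the background. Over the 21 small HSPs alone the shares were 19.0% below and 4.76% above. Os06g0253100, an Hsp20 domain gene, was named for its small unadjusted p. It was at 0.440, 0.458 and 0.772 CPM in WT and 2.73, 0.642 and 9.36 CPM in OsWRKY65-2, overlapping through library 2. Its log2 fold change was 2.76 ± 1.05 (SE, adjusted p = 0.763) and 1.47 without library 3 (adjusted p = 0.706, edgeR).

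Another 24 genes matched the terms but stayed under the read minimum. Of these, 9 had no read in any library, and 6 had 10 or more reads in OsWRKY65-2 library 3 and in no WT library. Not among those 6, the class II gene Os02g0782500, annotated at 17.5 kDa, had 0, 19 and 8 reads in WT. It had 8, 0 and 773 reads in OsWRKY65-2, the last equal to 41.3 CPM. The class IV gene Os04g0445100, annotated at 22.7 kDa, had 0 reads in each WT library and 9, 0 and 139 reads in the line. Os03g0245800, similar to heat shock protein 26, had 52 reads in library 3 and 0 in the other 5. In the other direction, the HSP70B-like Os01g0688900 had 5, 11 and 46 reads in WT and 0 in each OsWRKY65-2 library, and Os12g0165200, an Hsp20 domain gene, had 11, 13 and 0 reads in WT and 0 in the line. Over the 24, reads were found in WT alone for 4 genes, in OsWRKY65-2 alone for 6 and in both for 5. The matching shares over all other genes under the read minimum were not taken, so these counts show nothing particular to heat shock proteins. The genes named here were chosen after their values were seen, and the differences were not tested.

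**Figure D3:**
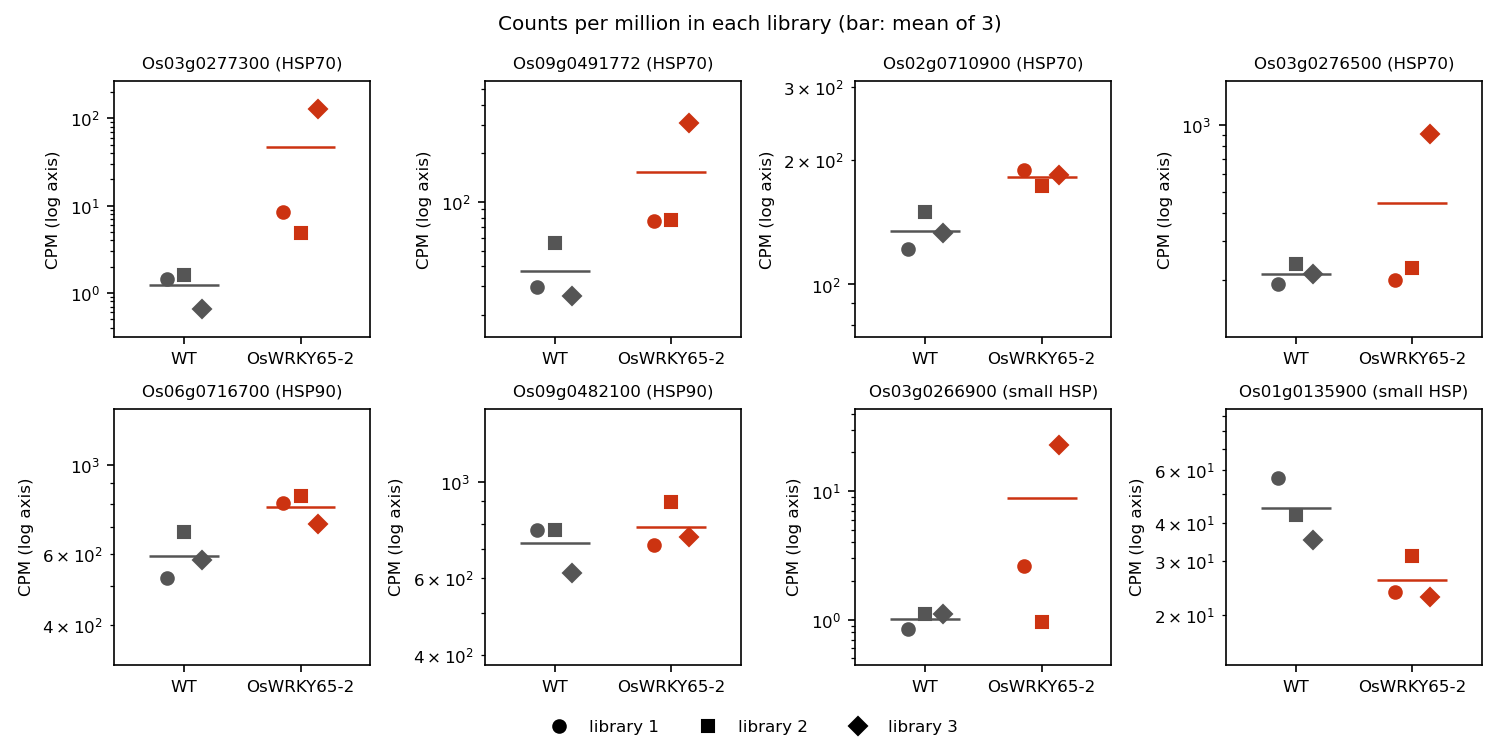
Points are CPM of 8 member genes in each of the 3 WT (grey) and 3 OsWRKY65-2 (red) libraries on log axes, with symbols for library number and a bar at the mean. Os03g0277300, Os09g0491772, Os02g0710900 and Os06g0716700 have every red point above every grey point, Os01g0135900 has every red point below, and Os03g0276500 and Os03g0266900 have library 3 far above the rest.

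HSP70 was the class with the largest median departure from WT. Of 10 HSP70 members 9 had a positive log2 fold change (median 0.74), and 8 of 10 did without OsWRKY65-2 library 3 (median 0.33). The 3 OsWRKY65-2 libraries lay above WT for 3 of the 10 and below for 0, where 7.16% and 10.5% of all genes did so. Libraries 1 and 2 alone lay above all WT libraries for 5 of the 10, beside 14.6% of all genes, and below for 0.

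Os03g0277300 was annotated simply as heat shock protein 70. On the log2(CPM + 1) scale it showed the widest range of all members, with 6.28 units between the lowest and the highest library. It was at 1.44, 1.59 and 0.650 CPM in WT and at 8.50, 4.85 and 127 CPM in OsWRKY65-2. All OsWRKY65-2 libraries were above WT, libraries 1 and 2 by a few fold and library 3 at 104 times the WT mean. Its log2 fold change was 5.16 ± 1.43 (SE, adjusted p = 0.763, edgeR) over all libraries and 2.37 ± 0.56 (SE, adjusted p = 0.231, edgeR) without library 3. DESeq2 called it in that smaller set (log2 fold change 2.43, adjusted p = 0.0202), and it gave the gene no adjusted p with all 6 libraries. Over the 16 settings with an adjusted p the range was 0.0202 to 0.999.

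Os09g0491772, annotated as similar to Hsc70-5, was at 29.8, 55.8 and 26.3 CPM in WT and at 76.0, 77.7 and 308 CPM in OsWRKY65-2. Each library of the line was above WT, on the CPM and on the TPM scale, and library 3 carried the mean. Its fitted log2 fold change was 2.04 ± 0.67 (SE, adjusted p = 0.763, edgeR), and 1.04 ± 0.32 without library 3 (SE, adjusted p = 0.320, edgeR). DESeq2 called it over the 6 libraries (log2 fold change 2.1, adjusted p = 0.0372), and the settings ran from 0.0372 to 0.999.

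Os02g0710900, an Hsp70 family gene, had a smaller change and closer libraries than the preceding pair. It was at 122, 149.9 and 133 CPM in WT and at 189, 173 and 184 CPM in OsWRKY65-2, or 135 ± 13.9 and 182 ± 8.45 CPM (SD, n = 3 each). The groups did not overlap in CPM, and they did in TPM (60.6 to 77.3 in WT and 74.8 to 77.8 in the line). Fitted over 6 libraries, the log2 fold change was 0.43 ± 0.18 (SE, adjusted p = 0.763, edgeR), 0.42 without library 3 (adjusted p = 0.480, edgeR), and 0.44 in DESeq2, which called it with all libraries (adjusted p = 0.0433, range over settings 0.0433 to 0.999).

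Os03g0276500, the second most abundant HSP70 member, differed from WT in 1 library. It was at 192, 238 and 213 CPM in WT and at 200, 228 and 906 CPM in OsWRKY65-2. Libraries 1 and 2 of the line fell within WT and library 3 reached 4.22 times the WT mean. In edgeR the log2 fold change was 1.05 ± 0.61 with 6 libraries (SE, adjusted p = 0.778) and 0.00 without library 3 (adjusted p = 0.997). Os03g0218500, similar to a 70 kD heat shock protein, was at 8.17, 9.23 and 4.59 CPM in WT and at 14.6, 8.35 and 89.3 CPM in OsWRKY65-2, again high in library 3 with library 2 inside WT. Its log2 fold change went from 2.34 ± 0.94 to 0.64 ± 0.41 without library 3 (SE, adjusted p = 0.763 and 0.622, edgeR).

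The chloroplast HSP70 Os05g0303000, annotated for chloroplast differentiation at high temperature, was the most abundant HSP70 member and did not share this pattern. It was at 385, 501 and 623 CPM in WT and at 509, 555 and 291 CPM in OsWRKY65-2, where library 3 was the lowest of the 6. The log2 fold change was -0.15 ± 0.32 (SE, adjusted p = 0.940) and 0.08 without library 3 (adjusted p = 0.952, edgeR). Among the 11 HSP70 annotations that missed the read minimum, 6 had no read at all.

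The 6 HSP90 members stayed near WT. In 5 of 6 the log2 fold change was positive, with a median of 0.11 (0.18 without library 3), and the fold changes of the class ran from -0.08 to 0.40. On the log2(CPM + 1) scale, no HSP90 gene was more than 1 unit from the WT mean in any OsWRKY65-2 library. The weakly expressed Os09g0534600 came closest, at -0.91 in library 3, where its CPM was 0.442 times the WT mean. The direction of the class median depended on scaling: it was -0.08 with library totals alone and -0.14 on the TPM scale, although it lay above the median of all genes by 0.11 and 0.14 in those settings.

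Os09g0482100, annotated as heat shock protein 82 and the most abundant member, was at 775, 773 and 618 CPM in WT and at 714, 899 and 746 CPM in OsWRKY65-2. The groups overlapped (log2 fold change 0.12 ± 0.21, SE, adjusted p = 0.923, edgeR), and the sign was negative on the TPM scale and with library totals alone. Os09g0482400 and Os09g0482600, both similar to heat shock protein 81-3 and adjacent to it by identifier on chromosome 9, had nearly equal counts in every library, with ratios of 0.991 to 1.03. Reads may be shared between copies this similar, so the values of the pair are uncertain one by one. Os09g0482400 was at 494, 485 and 433 CPM in WT and 460.3, 565 and 475 CPM in OsWRKY65-2, overlapping throughout (log2 fold change 0.09 ± 0.19, SE, adjusted p = 0.940, edgeR), and Os09g0482600 gave 0.07 ± 0.19 (adjusted p = 0.951); both turned negative under the same pair of scalings as Os09g0482100.

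Os06g0716700, similar to heat shock protein 90, was the HSP90 member whose OsWRKY65-2 libraries all lay above WT in CPM. It was at 523, 682 and 581 CPM in WT and at 803, 838 and 714 CPM in OsWRKY65-2, or 1.32 times the WT mean. In TPM the groups overlapped, at 383 to 417 in WT and 373 to 533 in the line. With edgeR the log2 fold change was 0.40 ± 0.20 (SE, adjusted p = 0.768), and 0.46 ± 0.22 without library 3 (SE, adjusted p = 0.508, edgeR). Os08g0500700, similar to heat shock protein 82, was at 284, 361 and 295 CPM in WT and at 292, 426 and 422 CPM in OsWRKY65-2 (log2 fold change 0.28 ± 0.23, SE, adjusted p = 0.840, edgeR). The weakly expressed Os09g0534600, an HSP90 family gene annotated for drought tolerance, was at 7, 3.61 and 5 CPM in WT and at 8.13, 4.32 and 2.30 CPM in OsWRKY65-2 (log2 fold change -0.08 ± 0.59, SE, adjusted p = 0.983, edgeR).

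**Figure D4:**
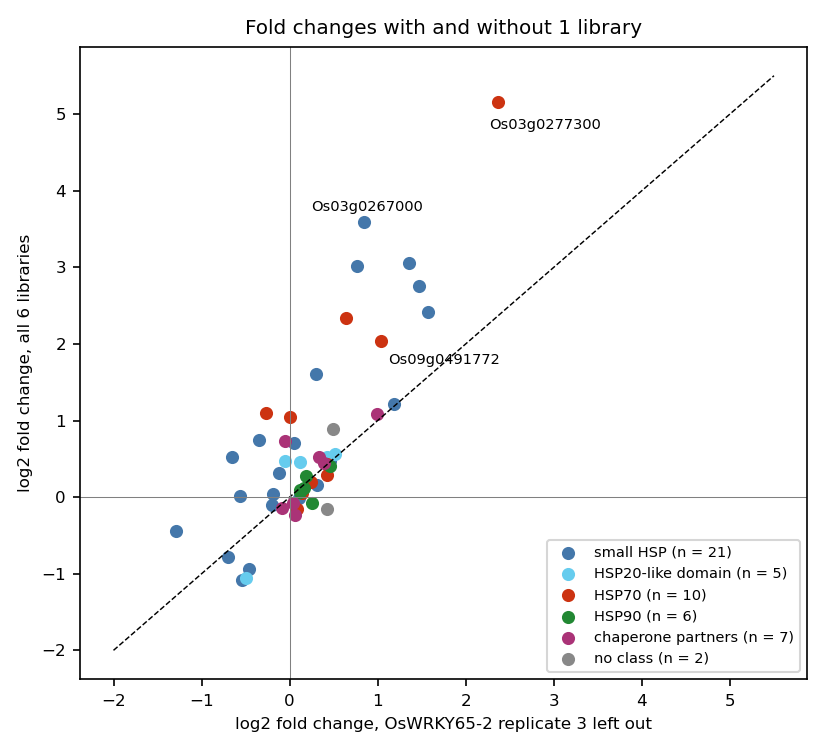
Each point is 1 member, with the edgeR log2 fold change (OsWRKY65-2 over WT) without OsWRKY65-2 replicate 3 on the x axis and with all 6 libraries on the y axis; the dashed line marks equal values. Small HSPs and HSP70s such as Os03g0267000 (3.59 against 0.84) and Os03g0277300 (5.16 against 2.37) lie far above the line, and HSP90s lie close to it.

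Of the 7 members whose products act with these chaperones, 4 had a positive log2 fold change (median 0.45), and 5 did without OsWRKY65-2 library 3 (median 0.06). The genes named here were chosen after their values were seen. They include 3 annotated as activators of the HSP90 ATPase, and Os02g0644100, similar to STI, a bridge between HSP70 and HSP90, whose log2 fold change was -0.08 ± 0.28 (SE, adjusted p = 0.964, edgeR) and 0.04 without library 3. The activators Os02g0139100 and Os08g0464000 lay above WT in all OsWRKY65-2 libraries in CPM, at 12.2 to 13.3 against 15.1 to 23.3 CPM and at 15.2 to 24.6 against 25.9 to 30 CPM, but not in TPM. The other activator, Os06g0703800, was at 11.3, 10.8 and 7.03 CPM in WT and 9.75, 9.10 and 29.7 CPM in OsWRKY65-2, high in library 3 alone. Its log2 fold change was 0.73 ± 0.55 (SE, adjusted p = 0.821) and -0.05 without library 3 (adjusted p = 0.981, edgeR). Os11g0216100, annotated as an HSP-binding protein, was at 29.9, 26 and 48.8 CPM in WT and 102, 37.3 and 84.9 CPM in OsWRKY65-2, with library 2 of the line inside WT (log2 fold change 1.09 ± 0.44, SE, adjusted p = 0.763, edgeR). Os09g0455400, similar to heat shock protein and without a class, lay above WT in every OsWRKY65-2 library in CPM, at 5.12, 7.64 and 6.42 CPM in WT and 8.44, 9.63 and 17.7 CPM in OsWRKY65-2 (log2 fold change 0.89 ± 0.41, SE, adjusted p = 0.764, edgeR), and without library 3 the change was 0.49 ± 0.33. Its groups overlapped in TPM.

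Os03g0821100, given as the marker of the set, is annotated as a non-cell-autonomous heat shock cognate protein 70 and so fell outside the text rule. It was at 93.1, 147 and 124 CPM in WT and at 236, 197 and 293 CPM in OsWRKY65-2, or 84.5 ± 19.4 and 142 ± 22.6 TPM (SD, n = 3 each). All OsWRKY65-2 libraries were above WT, by a mean of 2 times in CPM. The log2 fold change was 1 ± 0.26 (SE, adjusted p = 0.763) and 0.84 ± 0.23 without library 3 (SE, adjusted p = 0.281, edgeR), while DESeq2 called it in both sets (adjusted p = 0.0122 and 0.0351). It had been singled out in earlier work on these data, so its values are a description. The members whose log2(CPM + 1) followed it most closely over the 6 libraries were Os02g0710900, Os09g0455400 and Os01g0136100, with Pearson's r of 0.971, 0.905 and 0.902 and Spearman's rho of 0.943 for each, given as a description over libraries of both genotypes.

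HSP70-type genes outside the text rule numbered 9. Of these, the marker included, 6 were tested and all 6 had a positive log2 fold change (median 0.83, and 0.36 without library 3), with 0 called. The list was drawn up after the annotations were read. Os05g0460000, similar to 70 kDa heat shock cognate protein 1, was at 8.41, 9.29 and 4.71 CPM in WT and at 28.6, 14.2 and 166 CPM in OsWRKY65-2. It had the smallest edgeR p of the list after the marker and was chosen after its values were seen. Its libraries did not overlap between genotypes (log2 fold change 3.21 ± 0.98, SE, adjusted p = 0.763, edgeR), and the change was 1.5 ± 0.40 without library 3.

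Heat shock factors, which bind heat shock elements and switch on HSP genes, were followed as a related list of 20 genes, of which 17 were tested. Of these 13 (76.5%, beside 49.5% of all genes) had a positive log2 fold change (median 0.82), and 0 were called. Without OsWRKY65-2 library 3, 10 were positive and the median was 0.08. In that library 10 of the 17 (58.8%) stood more than 1 unit of log2(CPM + 1) above the WT mean, beside 15.7% of all genes. Another 3 (17.6%) stood more than 1 unit below it, beside 29.6%. In libraries 1 and 2 there were 0 and 1 above (background 5.82% and 3.37%) and 2 and 1 below (background 7.36% and 4.36%). The class B factor Os08g0546800 had the smallest p, at 1.40, 0.489 and 1.38 CPM in WT and 1.89, 1.14 and 35.3 CPM in OsWRKY65-2 (log2 fold change 3.46 ± 1.42, SE, adjusted p = 0.763, edgeR). Without library 3 the change was 0.45 (adjusted p = 0.929, edgeR). Its libraries overlapped through library 2.

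In the remaining chaperone lists the medians depended on OsWRKY65-2 library 3. HSP60 and other chaperonins fold proteins inside ring-shaped complexes, and their list was matched by annotation words. It also holds Os03g0807900, Os07g0569600 and Os08g0425200, annotated as chaperonin-like RbcX, so it is not one of ring chaperonins alone. Of its 30 tested genes 18 were positive (median 0.08) and 0 were called, and without library 3 the positive ones were 21 (median 0.42). In OsWRKY65-2 library 3 the median log2(CPM + 1) of the list was -1.01 relative to the WT mean, against 0.20 and 0.45 in libraries 1 and 2. The chloroplast co-chaperonin Os09g0438700 had the smallest p of that list, at 74.9, 77.9 and 96.4 CPM in WT and 42.2, 56.0 and 28.8 CPM in OsWRKY65-2, with every library of the line below WT (log2 fold change -0.97 ± 0.29, SE, adjusted p = 0.763, edgeR). A further list of 34 genes outside the set matched annotation words used for partners of HSP70 and HSP90. Many were FK506-binding proteins or FKBP-type isomerases, and a match does not show that the product acts with HSP70 or HSP90. In that list 17 were positive and 17 negative (median 0.00), and 19 were positive without library 3 (median 0.11). Of 12 endoplasmic reticulum folding genes 6 were positive and 6 negative (median -0.01), and 9 were positive without library 3 (median 0.35), with 0 called in both lists. Libraries 1 and 2 lay above WT for 6 of the 12 endoplasmic reticulum genes and 7 of the 30 chaperonin genes, where 14.6% of all genes did so. In those lists the smallest p belonged to Os01g0562400, an FKBP-type isomerase at 1.32 to 2.92 CPM in WT and 0 to 0.0524 CPM in OsWRKY65-2, and to Os01g0895600, similar to calreticulin-3, at 109 to 155 CPM in WT and 158 to 418 CPM in OsWRKY65-2 (adjusted p = 0.763 for both, edgeR). Os01g0562400 passed the read filter through WT alone, with 33, 58 and 72 reads against 1, 0 and 0, so it had to differ and its p supports nothing. The bridging factor MBF1 gene Os08g0366100 was at 176 to 204 CPM in WT and 205 to 264 CPM in OsWRKY65-2 (log2 fold change 0.30 ± 0.19, SE, adjusted p = 0.794, edgeR; 0.19 without library 3), in a list of 3 genes with 1 positive.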

How the data were processed

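Leaf polyA RNA of 3 WT and 3 OsWRKY65-2 rice seedling samples was analysed from 1 deposited gene table. The tools were StringTie 2.1.3b, HISAT2 2.1.0, Trimmomatic and bcl2fastq 2.20.0, per the submitters' processing notes, which name the build IRGSP-1.0; the counting options and the strand setting are not stated there. Read counts in the authors' table are estimated counts that came as whole numbers, so rounding changed nothing; for 5477 genes with 1 transcript the ratio of deposited FPKM to count was constant between a pair of libraries to within 0.234%. The TPM values deposited by the authors are scaled to length and library. Without strand information, overlapping genes cannot be told apart.

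edgeR 4.0.16 (R 4.3.3) was run on all genes with TMM factors, filterByExpr (minimum count 10), the robust quasi-likelihood test, a prior count of 2 and genotype as sole term; calls need a Benjamini-Hochberg adjusted p under 0.05. SE is the log2 fold change divided by the square root of F. Fits were tested on simulated counts with the same dispersion for all genes, large changes and no outlying library. That checks the code and does not show what the fits could detect in these data. Alternatives were other factors and filters, DESeq2 1.42.0, limma 3.58.1 (voom, and trend on log2(TPM + 1) or log2(TPM + 0.1)), a replicate block, each library omitted, and, chosen after seeing the data, DESeq2 without OsWRKY65-2 replicate 3.

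Members, lists and tests were chosen with earlier results of these data known. Genes were named by rule: Os03g0821100; for small HSP, HSP70 and HSP90 each the 4 highest by TPM, up to 4 largest changes without overlap at a mean of 2 CPM or more, the 3 smallest p and the 2 widest ranges; members called by edgeR; the 3 most like Os03g0821100; and the smallest p of each related list. Others are said to be chosen after their values were seen. Patterns of related lists were corrected for accidental matches and the wording "heat stress transcription factor" after the annotations were read. No promoter or protein sequences were used here, and no coordinates are given because the gene reference belongs to another assembly.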

Additional observations from a re-analysis of the deposited data

How the results depend on the processing

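The count of called members was 0 in each direction under every alternative except DESeq2, which called 2 higher with 6 libraries and 1 without OsWRKY65-2 replicate 3. Over all genes DESeq2 called 419 higher and 303 lower, and 266 and 414 without that library; no filter and limma-trend with either pseudocount gave 2 higher. Leaving out each library in turn gave 0 to 13 higher and 0 to 6 lower, the highest counts without OsWRKY65-2 replicate 3; the cause was not tested. The median log2 fold change of the 26 small HSP and HSP20-like genes ran from 0.08 (without OsWRKY65-2 replicate 3) to 0.65 over the omitted libraries, and was 0.07 with DESeq2 without that library. That of HSP70s was 0.27 and 0.28 on log2(TPM + 1) and log2(TPM + 0.1). That of HSP90s was -0.14 on both and -0.08 with library totals alone, and -0.01 without OsWRKY65-2 replicate 2. Members without overlap numbered 3 higher and 2 lower in deposited TPM (3.9% and 18.4% of all genes). With 1 library omitted they numbered 9 to 19 higher and 1 to 6 lower, where 9.37% to 18.8% and 13.4% to 22.4% of all genes did so. Without OsWRKY65-2 replicate 2 there were 19 and 6 (18.8% and 22.4% of all genes), without OsWRKY65-2 replicate 3 there were 10 and 4 (14.6% and 14.1%), and without WT replicate 2 there were 15 higher (10.7%).

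Of 23 genes named by rule (members and the marker), 7 changed sign in at least 1 of 16 settings. Genes described for other reasons are outside this count. Among those, Os03g0266300, Os03g0267200, Os06g0703800 and Os02g0644100 changed sign in edgeR without OsWRKY65-2 replicate 3. Os09g0482100 fell to -0.12 on both TPM scales and -0.06 with library totals, Os09g0482600 to -0.17 and -0.11, and Os09g0482400 to -0.16 and -0.09. With 1 library omitted, Os09g0482600 ran from -0.04 to 0.12 and Os09g0482400 from -0.02 to 0.14. Os02g0201000 ran from -0.14 to 0.11, Os05g0303000 from -0.36 to 0.08, Os03g0276500 from 0.00 to 1.40 and Os09g0534600 from -0.64 to 0.25. DESeq2 without OsWRKY65-2 replicate 3, chosen after seeing the data, gave 0.10, 0.07, -0.01 and 0.24 for these 4.

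With the replicate number as a block, edgeR called 0 genes, and the medians were 0.39 for the 26 small HSP and HSP20-like genes, 0.48 for HSP70s and 0.10 for HSP90s. Deviations of same-numbered libraries correlated at 0.0816, -0.0739 and -0.0114 across 23769 genes. OsWRKY65-2 library 3 stood apart from all others and can dominate the deviations of its genotype. These correlations therefore cannot decide whether the numbers pair the samples. A count of 0 allows up to 0.0917 to 0.160 CPM by library, for counting error only.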
